A study of Sus scrofa with 17 samples.

Results

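UPF3A (ENSSSCG00000024679) is 1 of the 26560 genes counted in biopsies of 17 perfused pig kidneys. The gene was chosen on its measured counts, because it was lower in both groups of kidneys that received extracellular vesicles than in the kidneys that received none. Its difference from the untreated group is therefore given as a description, with no test. The kidneys came from female wild-type Dutch Landrace pigs aged 6 months to 1 year, and all of them had 32 min of warm ischemia, 24 h of hypothermic machine perfusion (HMP) and 5 h of normothermic machine perfusion (NMP). Group 1 (G1, n = 5) was given PBS in both phases. Group 2 (G2, n = 6) was given pUPC-EVs, the vesicles released by porcine urine progenitor cells (labelled exosomes), during HMP and PBS during NMP. Group 3 (G3, n = 6) was given pUPC-EVs during HMP and again during NMP. Each animal, slaughtered for food, gave 1 kidney, so the replicates are animals. RNA was taken when NMP ended, so each value is a single time point of an isolated organ, and none of these kidneys was left unperfused.

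UPF3A belongs to nonsense-mediated mRNA decay (NMD), the surveillance pathway that degrades mRNAs on which translation stops too early. When a ribosome terminates upstream of an exon junction complex, a protein assembly left on the mRNA by splicing, the helicase UPF1 joins UPF2 and a UPF3 protein, the kinase SMG1 phosphorylates UPF1, and effectors such as SMG5 and SMG6 bring the mRNA to decay. Vertebrates have a pair of UPF3 genes, the X-linked UPF3B, which bridges UPF2 and the exon junction complex, and the autosomal UPF3A, whose activity in the pathway is weaker and has been described as either supporting or opposing decay. NMD also tunes many normal transcripts, among them stress response genes such as ATF4 and GADD45A and several mRNAs that encode NMD factors.

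In the pig assembly Sscrofa11.1, RefSeq places UPF3A near the end of chromosome 11 (chr11:79117708-79137083), with 10 annotated transcripts. No other RefSeq gene overlaps it. CDC16, which encodes a subunit of the anaphase-promoting complex, ends 5949 bases before the start of UPF3A. UPF3B lies on chromosome X (chrX:98184646-98206135). The counts are sums over a gene, so the transcripts of UPF3A cannot be told apart, and how reads shared between UPF3A and UPF3B were treated is not given in the sources used here.

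UPF3A was lower in every kidney given pUPC-EVs than in every kidney given PBS, once the libraries were scaled. Levels are in CPM, which divides the reads of a gene by the size of its library after TMM scaling in edgeR. In G1 the values were 22.5, 19.2, 21.2, 22.3 and 20.0 CPM for kidneys 1 to 5. In G2 they were 15.0, 12.9, 13.3, 14.9, 16.3 and 16.5 CPM for kidneys 1 to 6. In G3 they were 14.6, 11.6, 18.0, 12.8, 14.3 and 13.7 CPM for kidneys 1 to 6. All 5 G1 kidneys stood above the other 12, while G2 and G3 overlapped almost throughout, and G3 held both the lowest and the highest of the 12 values. The nearest pair across this gap was G3 kidney 3, at 18.0 CPM, and G1 kidney 2, at 19.2 CPM. The gap between them is smaller than the spread within G1, so the separation is narrow at its edge.

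**Figure D1:**
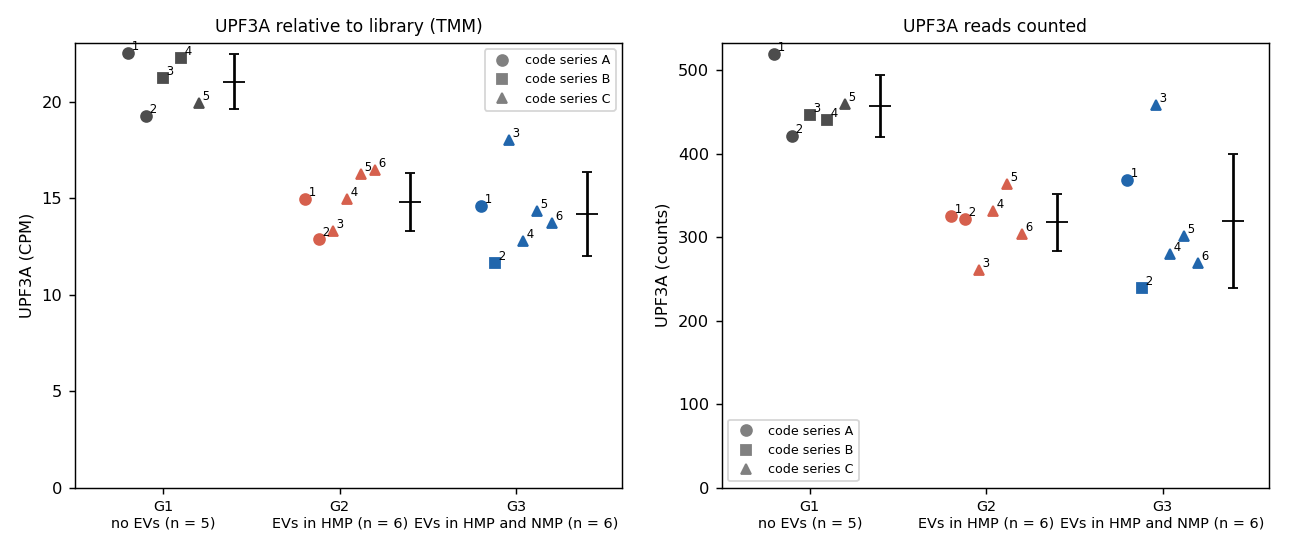
UPF3A in each kidney by group, as CPM with TMM scaling (left) and as reads counted (right), with the kidney number beside each point, its shape for the run of sample codes, and the mean ± SD beside each group. On the left the lowest G1 kidney, at 19.2 CPM, is above the highest kidney given pUPC-EVs, at 18.0 CPM, whereas on the right G3 kidney 3, with 458 reads, lies among the G1 kidneys.

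G1 kidneys averaged 21.0 ± 1.42 CPM (SD, n = 5). The average was 14.8 ± 1.48 CPM for G2 and 14.2 ± 2.17 CPM for G3 (SD, n = 6 each). Thus the mean was 29.7% lower in G2 and 32.6% lower in G3 than in G1. On the log2 scale of the edgeR fit the difference from G1 was -0.51 (SE 0.125) in G2 and -0.58 (SE 0.131) in G3. Both comparisons share the same 5 G1 kidneys, so these differences do not repeat each other independently. A lower level in a biopsy can come from fewer cells that express the gene or from less RNA per cell, and these cannot be told apart.

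G3 and G2 lay close to each other. The log2 fold change between them was -0.06 (SE 0.135), with a 95% interval from -0.34 to 0.23 in the edgeR fit. The selection asked both groups to be below G1, which limits how far they can differ from each other, so this value too is a description and no p is given. In the order of the group means, G1 above G2 above G3, the step from G1 to the others is the one that chose the gene, and the step from G2 to G3 is within the spread between kidneys.

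The number of UPF3A reads was ample for these values. The reads were 519, 421, 446, 440 and 459 in G1 kidneys 1 to 5, at most 364 in G2, with 304 and 331 among the others, and 368, 239, 458, 280, 302 and 269 in G3 kidneys 1 to 6. The exact 95% Poisson interval of the smallest, 239 reads, was 210 to 271, and that of the largest, 519 reads, was 475 to 566 (counting error only). Before scaling, the groups overlapped, because G3 kidney 3 held 458 reads and had the largest library, with 24736473 reads counted on genes. G3 kidney 3 was also the highest kidney given pUPC-EVs after division by library size alone, at 18.5 CPM against 20.9 CPM for the lowest G1 kidney. Without this kidney the log2 fold change of G3 against G1 was -0.66.

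The spread of UPF3A within groups is part of what the selection used, since a gene that separates kidneys one by one tends to vary little inside a group, and it is given as a description. The coefficient of variation of its CPM was 6.76% in G1, 9.99% in G2 and 15.3% in G3, while counting alone would give 4.68%, 5.61% and 5.60%. Its pooled SD within groups was 0.162 on the log2 CPM scale, against a median of 0.269 for the 4432 genes whose mean level was within a 2-fold range of it. Of those genes 9.52% varied less.

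Among all 26560 genes, UPF3A was the single one with all 12 kidneys of G2 and G3 below all 5 of G1, or 0.00377% of genes, which describes how it was chosen. Scaled by library size alone, 7 genes had this pattern, UPF3A among them, and with the size factors of DESeq2 again 1. The opposite pattern, all 12 above all 5, was also found in 1 gene, CAMK2A, a neuronal calmodulin-dependent kinase subunit that was barely detected, at a mean of 0.0182 CPM in G1 and 0.189 CPM in the kidneys given pUPC-EVs.

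The kidneys carry running codes in 3 blocks, called code series A, B and C here, and what the blocks stand for is not stated. Within series A (G1 with 2 kidneys, G2 with 2, G3 with 1), UPF3A differed from G1 by -0.58 in G2 and by -0.51 in G3 on the log2 CPM scale. Within series C (G1 with 1 kidney, G2 with 4, G3 with 4) the differences were -0.39 and -0.45. Within series B (G1 with 2 kidneys, G3 with 1) the difference of G3 from G1 was -0.90. The sign of each of these differences was fixed by the selection, since all 12 kidneys given pUPC-EVs lay below all 5 of G1, and only their sizes are described. G3 minus G2 was 0.07 in series A and -0.06 in series C. No test within a series is given, since the gene was chosen on these kidneys.

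Biopsies can hold different shares of the cell types of the kidney. Markers of the proximal tubule, loop of Henle, distal tubule, collecting duct and podocytes were read in every kidney, as the tissue label requires. The 7 leukocyte markers summed to 95.8 to 121 CPM in G1, 91.2 to 170 CPM in G2 and 107 to 127 CPM in G3, and 6 of the 7 had counts in every kidney. The 4 endothelial markers summed to 645 to 736 CPM in G1, 517 to 1047 CPM in G2 and 518 to 957 CPM in G3. The 6 fibroblast and smooth muscle markers summed to 350 to 648, 430 to 801 and 291 to 607 CPM in these groups. The ranges of these 3 sums overlapped between all groups. By single genes, log2 fold changes were above 0 for 4 of 4 endothelial markers in both G3 and G2 against G1 (medians 0.24 and 0.18), for 7 of 8 proximal tubule markers in both (medians 0.12 and 0.15), and for 3 of 6 fibroblast and smooth muscle markers in G3 and 6 of 6 in G2 (medians -0.01 and 0.32). Leukocyte markers were above 0 for 5 of 7 in both (medians 0.09 and 0.49) and collecting duct markers for 3 of 4 in G3 and 4 of 4 in G2 (medians 0.20 and 0.42), while loop of Henle markers were below 0 for 3 of 3 in G3 and 1 of 3 in G2 (medians -0.29 and 0.01). Below 0 were also 2 of 3 distal tubule markers in G3 and 3 of 3 in G2 (medians -0.34 and -0.11), 2 of 3 podocyte markers in G3 and 1 of 3 in G2 (medians -0.16 and 0.20), and 3 of 4 erythroid markers in G3 and 0 of 4 in G2 (medians -0.92 and 0.28, at low levels). Of all genes tested, 53.1% were below 0 for G3 and 50.7% for G2. Erythroid markers summed to at most 5.42 CPM in any kidney although autologous blood cells circulate in NMP, and 1 of the 4 matched had counts in every kidney. Markers with an unadjusted p below 0.05 in edgeR included PVALB and PECAM1 between G3 and G1 and AQP2 and CD14 between G2 and G1, and no marker passed after adjustment. CD14, a monocyte receptor, averaged 13.0 CPM in G2 and 7.85 CPM in G1. The part of cell composition in the level of UPF3A was not tested.

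**Figure D2:**
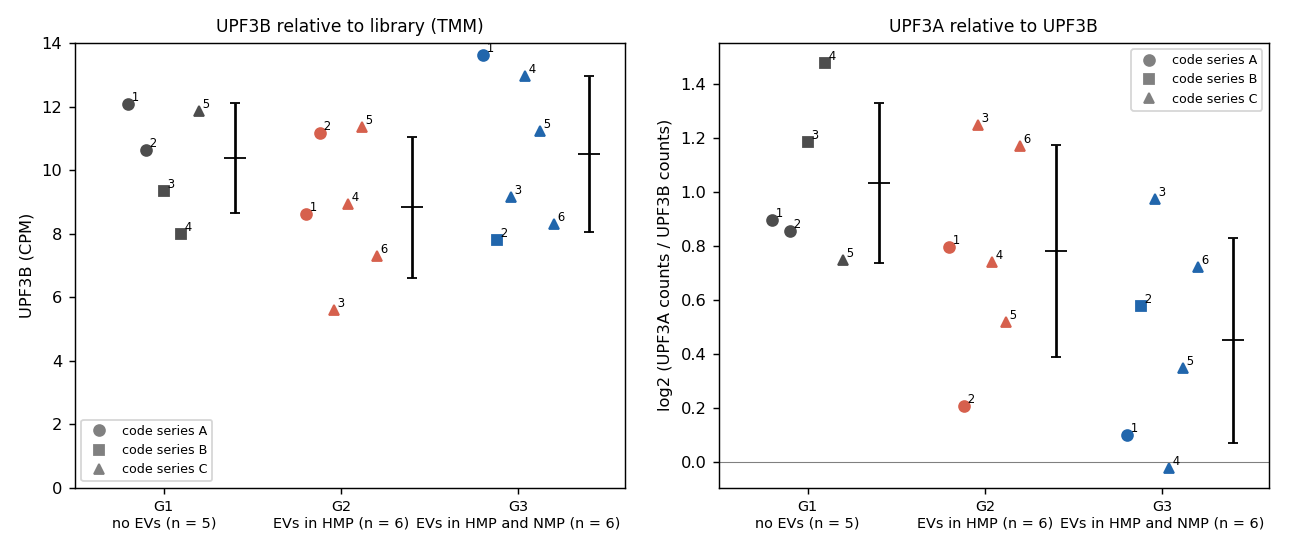
UPF3B in each kidney by group, in CPM with TMM scaling (left), and the log2 ratio of UPF3A reads to UPF3B reads in the same kidney (right), with kidney numbers, code series by shape and the mean ± SD beside each group. UPF3B overlaps between all groups, and the ratio runs lower in G3 (mean 0.45) than in G1 (mean 1.03) with overlap between them.

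No difference between groups was detected in the paralog UPF3B. Its level was 12.1, 10.6, 9.33, 7.99 and 11.9 CPM in G1 kidneys 1 to 5, with a mean of 10.4 ± 1.73 CPM (SD, n = 5). In G2 kidneys 1 to 6 it was 8.63, 11.2, 5.59, 8.94, 11.3 and 7.31 CPM, with a mean of 8.83 ± 2.22 CPM (SD, n = 6). In G3 kidneys 1 to 6 it was 13.6, 7.79, 9.16, 13.0, 11.2 and 8.31 CPM, with a mean of 10.5 ± 2.46 CPM (SD, n = 6). The groups overlapped, and G3 spanned the whole range of G1. The log2 fold change of UPF3B was 0.01 (SE 0.186, adjusted p = 0.992) for G3 against G1, -0.23 (SE 0.196, adjusted p = 0.840) for G2 against G1 and 0.26 (SE 0.196, adjusted p = 0.948) for G3 against G2, by edgeR with adjustment over all genes tested. Without G2 kidney 3, UPF3B was at -0.14 for G2 against G1 and at 0.15 for G3 against G2. The 95% interval for G3 against G1 ran from -0.38 to 0.40, so smaller changes in either direction were not detectable with these kidneys.

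A ratio of both genes within a kidney does not depend on how libraries are scaled. The log2 ratio of UPF3A to UPF3B reads ran from 0.75 to 1.48 in G1, with a mean of 1.03 ± 0.297 (SD, n = 5). It ran from 0.21 to 1.25 in G2, with a mean of 0.78 ± 0.392, and from -0.02 to 0.98 in G3, with a mean of 0.45 ± 0.379 (SD, n = 6 each). The mean difference from G1 was -0.25 in G2 and -0.58 in G3. With 1 kidney left out it ran from -0.35 to -0.14 in G2, the latter without G2 kidney 2, and from -0.69 to -0.47 in G3. Unlike UPF3A alone, the ratio overlapped between all groups, since UPF3B varied more between kidneys. Within the code series, the ratio of G3 differed from that of G1 by -0.77 in series A, -0.75 in series B and -0.24 in series C. The difference of G2 from G1 was -0.37 in series A and 0.17 in series C, and that of G3 from G2 was -0.40 and -0.41. The sign thus changed between series for G2 against G1 only. Because UPF3A is part of the ratio and was selected, no test is given.

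No difference between groups was detected in the NMD core factors listed beside UPF3A. UPF3A itself was fitted with all genes, but no test of it against G1 is given, since it was chosen on these values. Of the 11 factors listed beside UPF3A, 10 were matched by symbol (among them UPF1, UPF2, UPF3B, SMG1, SMG5, SMG6, SMG9, DHX34 and NBAS), and 0 of the 10 passed the adjusted or the unadjusted threshold of 0.05 in edgeR in any of the 3 comparisons. For G3 against G1 their log2 fold changes lay between -0.04 and 0.10, with 6 above 0 and 4 below, and a median of 0.01 beside -0.02 for all genes. For G2 against G1 they lay between -0.27 and 0.18 with a median of 0.06, beside -0.01 for all genes. For G3 against G2 they lay between -0.13 and 0.26 with a median of 0.01, beside -0.00 for all genes. These counts stand beside the share of all genes called. Between G3 and G1, 2 genes of 25719 (0.00778%) passed an adjusted p of 0.05 in edgeR, where DESeq2 called 31 and limma voom with sample quality weights 1, while an unadjusted p below 0.05 was found lower in G3 for 2.79% and higher for 1.94% of genes. Between G2 and G1 edgeR called 0 of 25699 genes (0%), with 901 genes at an unadjusted p below 0.05, 2.09% lower and 1.42% higher in G2, where DESeq2 called 1 and the weighted voom fit 0. Between G3 and G2 edgeR called 0 of 25701 genes (0%), with 805 genes at an unadjusted p below 0.05, 1.52% lower and 1.61% higher in G3, where DESeq2 called 3 and the weighted voom fit 0. At these shares a list of 10 genes with 0 called is near the background.

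**Figure D3:**
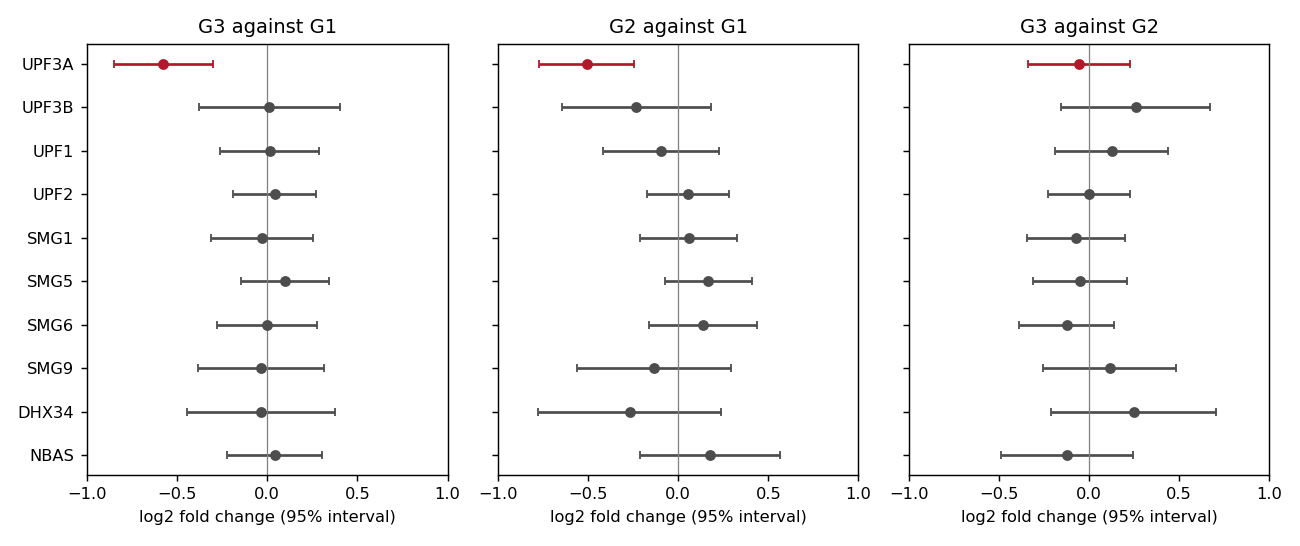
Log2 fold change of UPF3A (red, the selected gene) and 9 further NMD factors (grey) with 95% intervals from the edgeR fit, for G3 against G1, G2 against G1 and G3 against G2. UPF3A stands at -0.58 and -0.51 in the comparisons with G1, the values it was chosen on, so its intervals there are a description and no test. The other factors lie between -0.27 and 0.18 in these comparisons, each with an interval that includes 0.

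UPF1, the central helicase, ranged from 123 to 162 CPM in G1, from 103 to 177 CPM in G2 and from 118 to 180 CPM in G3. Its log2 fold change was 0.01 (SE 0.130, adjusted p = 0.985) for G3 against G1 and -0.10 (SE 0.152, adjusted p = 0.937) for G2 against G1. UPF2, which links UPF1 to the UPF3 proteins, had means of 34.1 ± 1.69, 35.4 ± 2.49 and 35.3 ± 3.89 CPM (SD, n = 5, 6 and 6) in G1, G2 and G3. The 95% interval of its log2 difference between G3 and G1 ran from -0.19 to 0.27.

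SMG1, the kinase that phosphorylates UPF1, differed from G1 by -0.03 (SE 0.134) in G3 and by 0.06 (SE 0.127) in G2. SMG9, a regulator of that kinase, differed by -0.04 (SE 0.165) and -0.13 (SE 0.203). The effectors that bring phosphorylated UPF1 to decay did not pass the test either. SMG5 averaged 69.0 ± 5.12 CPM in G1, 77.4 ± 7.45 CPM in G2 and 74.4 ± 11.4 CPM in G3 (SD, n = 5, 6 and 6), with a log2 fold change of 0.17 (SE 0.114, adjusted p = 0.840) for G2 against G1. SMG6, the endonuclease, was at -0.00 (SE 0.132) for G3 and 0.14 (SE 0.142) for G2 against G1. DHX34, a helicase that promotes UPF1 phosphorylation, had the lowest value of the list, -0.27 (SE 0.241, adjusted p = 0.846) for G2 against G1, which was -0.52 after adjusting for code series and ran from -0.49 to -0.16 without 1 kidney. NBAS, which acts in NMD at the endoplasmic reticulum, had the highest value for G2 against G1, 0.18 (SE 0.184, adjusted p = 0.890). NBAS owed this to G2 kidney 1, at 41.4 CPM beside 19.1 to 30.6 CPM in the other G2 kidneys, and its value without that kidney was 0.01.

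The machinery around the core was also measured. Of the exon junction complex and its partners, 7 of 10 were matched, and their median log2 fold change was 0.02 for G3 against G1 and -0.05 for G2 against G1. EIF4A3, the helicase that anchors the complex on mRNA, differed from G1 by 0.09 in G3 and by -0.01 in G2. RBM8A, its core partner known as Y14, differed by -0.06 and -0.05. All 6 factors of translation termination and cap binding were matched, among them the release factors ETF1 and GSPT1, at 0.11 and 0.13 for G3 against G1 and 0.20 and 0.18 for G2 against G1. GSPT2, of the same list, went the other way, at -0.19 for G3 and -0.21 for G2 against G1. Of the 6 factors, 3 were above 0 for G3 (median 0.01) and 4 for G2 (median 0.04). None of the 13 matched members of both lists passed the unadjusted threshold in edgeR in any of the 3 comparisons, which at the shares of all genes given above (2.79% lower and 1.94% higher for G3 against G1) is near the background.

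Of the 12 mRNA decay enzymes and their cofactors, all matched, 11 had a log2 fold change above 0 for G3 against G1 with a median of 0.09, and 7 for G2 against G1 with a median of 0.04. The remaining 1 and 5 of 12 stood below 0, beside 53.1% and 50.7% of all genes tested. DCP1A, an activator of the decapping enzyme, came nearest to the threshold, at 26.3 ± 2.28 CPM in G1 (SD, n = 5), 31.0 ± 2.58 CPM in G2 and 30.2 ± 2.54 CPM in G3 (SD, n = 6 each). Its log2 fold change was 0.23 (SE 0.115, adjusted p = 0.840) for G2 and 0.19 (SE 0.105, adjusted p = 0.813) for G3 against G1. XRN1, the exonuclease that digests decapped mRNA, was at 0.12 for G3 and -0.10 for G2 against G1. No decay enzyme passed the unadjusted threshold of edgeR in any of the 3 comparisons, again near the background.

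**Figure D4:**
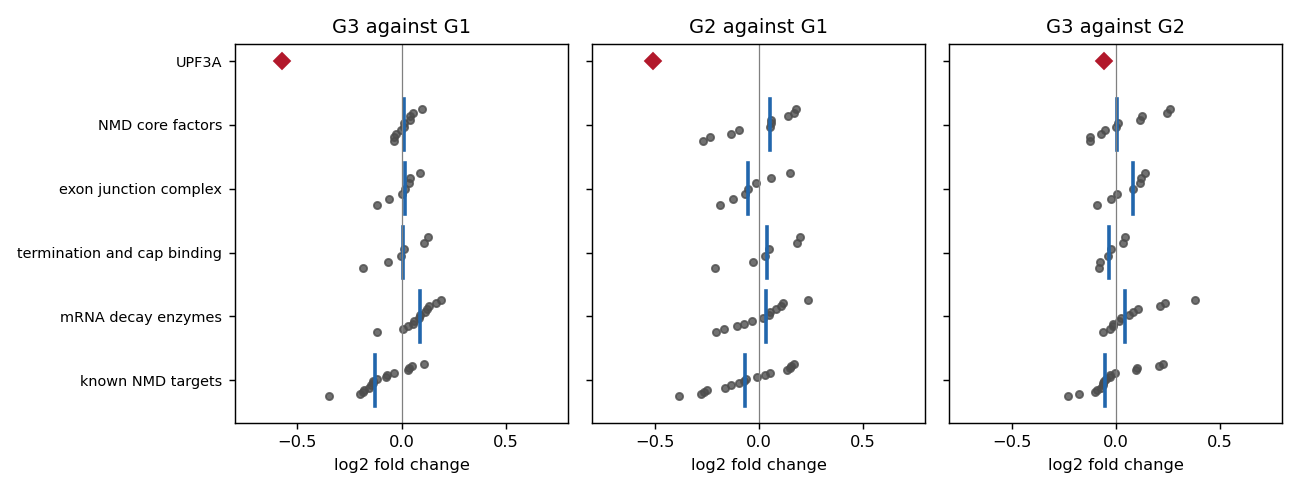
Log2 fold changes of all matched members (grey points) of the NMD core, the exon junction complex, termination and cap binding factors, mRNA decay enzymes and known NMD targets, with the median of each list (blue line) and UPF3A (red diamond), in the 3 comparisons. All list medians lie between -0.13 and 0.09, and UPF3A, the selected gene, is at -0.58 and -0.51 in the comparisons with G1.

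No difference between groups was detected by edgeR in transcripts known as substrates of NMD. Of 21 such genes 16 were matched, and 12 of them had a log2 fold change below 0 for G3 against G1, with a median of -0.13 and a range from -0.35 to 0.11, where 53.1% of all genes tested were below 0. For G2 against G1 it was 10 of 16, with a median of -0.06, beside 50.7% of all genes, and for G3 against G2 12 of 16, with a median of -0.05, beside 50.3%. None passed the unadjusted threshold in any of the 3 comparisons, again near the background. ATF4, the effector of the integrated stress response, was at 0.03 and 0.06 for G3 and G2 against G1. GADD45A, an often used readout of NMD, was at 0.05 and 0.13. UPP1, a uridine phosphorylase gene, had the lowest value for G3 against G1, with 8.45 ± 3.60 CPM in G1 (SD, n = 5) and 6.70 ± 1.12 CPM in G3 (SD, n = 6), at -0.35 (SE 0.220, adjusted p = 0.813). UPP1 owed this to G1 kidney 1, at 14.8 CPM beside at most 7.39 CPM in the other G1 kidneys, and its value without that kidney was -0.05. SRSF7, a splicing factor gene with a poison exon, had the lowest for G2 against G1, at -0.38 (SE 0.257, adjusted p = 0.840), and at -0.24 without G1 kidney 1. Counts per gene add the productive and the NMD-sensitive transcripts of such genes, so the level of the latter is not given by these values.

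The nearest annotated neighbour, CDC16, averaged 48.3 ± 5.73 CPM in G1 (SD, n = 5), 42.7 ± 6.52 CPM in G2 and 43.9 ± 3.11 CPM in G3 (SD, n = 6 each). Its log2 fold change was -0.14 (SE 0.109, adjusted p = 0.813) for G3 and -0.18 (SE 0.133, adjusted p = 0.840) for G2 against G1 in edgeR. CDC16 thus had values below 0 in both comparisons but did not pass the test. Of the 3 RefSeq genes before UPF3A and the 2 that follow it on the chromosome, the others carry no symbol that matched the count table.

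The genes that varied across the 17 kidneys most like UPF3A were ranked by Pearson's r of log2 CPM among 13710 genes with a mean of at least 1 CPM. The middle 98% of genes had r from -0.59 to 0.57. Because UPF3A itself separates G1 from the other kidneys, a gene that differs between these groups has a high r by that alone, so r within groups (after subtracting group means) is given as well, and no p is given for any of them. These kidneys share library scaling and group structure, and the genes were picked as the extremes of many.

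Of the 10 genes with the highest r, 7 had a symbol. SAMD11 had r = 0.80 (Spearman's rho = 0.79, within groups 0.57) and SEC61A2, a subunit gene of the protein translocation channel of the endoplasmic reticulum, had r = 0.80 (rho = 0.75, within groups 0.51). PPP1R15A, the stress-induced regulator that lets eIF2 alpha be dephosphorylated, had r = 0.77 (rho = 0.79, within groups 0.57). TGIF2, a transcriptional corepressor, had the highest of the 7 within groups, at 0.74, with r = 0.76 (rho = 0.77). The remaining 3 were LIMCH1, a regulator of non-muscle myosin (r = 0.76, rho = 0.79), HSPA6, a stress-inducible HSP70 chaperone (r = 0.75, rho = 0.69), and ARNT2, a bHLH-PAS transcription factor (r = 0.75, rho = 0.77). Without G1 kidneys 1 and 4, the kidneys farthest from the median of UPF3A, r of these 7 genes ran from 0.68 for SEC61A2 to 0.81 for HSPA6. With library size alone as the scaling it ran from 0.77 for HSPA6 to 0.88 for SEC61A2. Over the 12 kidneys given pUPC-EVs alone it ran from 0.52 for SEC61A2 to 0.70 for TGIF2. The r within groups depended on G3 kidney 3. Without that kidney it ran from 0.35 for LIMCH1 to 0.62 for ARNT2, against 0.61 and 0.50 with it. TGIF2 was then at 0.57, no longer the highest of the 7.

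In CPM these genes followed UPF3A to different degrees. PPP1R15A averaged 397 CPM in G1 (342 to 460), 311 CPM in G2 (242 to 451) and 291 CPM in G3 (223 to 344). HSPA6 averaged 944 CPM in G1 (675 to 1131), 525 CPM in G2 (437 to 714) and 621 CPM in G3 (276 to 870). SEC61A2 averaged 17.6, 15.1 and 14.6 CPM. SEC61A2 ran from 16.2 to 18.9 CPM in G1 and from 13.1 to 16.9 CPM in G2.

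The named genes with the lowest r were DIPK2B (r = -0.84, rho = -0.78), SH3BP5, which encodes an exchange factor for RAB11 (r = -0.82, rho = -0.79), SOCS5, a suppressor of cytokine signalling (r = -0.82, rho = -0.83), WSCD1 (r = -0.80, rho = -0.81) and INHBB, the beta B subunit of activin and inhibin (r = -0.78, rho = -0.75). With library size alone as the scaling, r was weaker, at -0.46 for SH3BP5, -0.48 for WSCD1, -0.56 for SOCS5, -0.66 for INHBB and -0.67 for DIPK2B. Their r within groups ran from -0.73 for SOCS5 to -0.51 for SH3BP5. Without G3 kidney 3 the r within groups was -0.31 for INHBB, against -0.61 with it, and -0.30 for SH3BP5, and the other 3 ran from -0.56 to -0.51. INHBB averaged 12.9 CPM in G1 (10.2 to 16.3), 25.3 CPM in G2 (14.0 to 40.3) and 22.5 CPM in G3 (10.1 to 27.6). SOCS5 averaged 57.1 CPM in G1 (43.7 to 64.1), 76.5 CPM in G2 (74.7 to 77.7) and 71.7 CPM in G3 (52.6 to 93.1). In both genes the mean of G1 was the lowest of the 3 groups. These values are a description of genes picked as extremes, with no test.

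Within groups alone, the named genes nearest to UPF3A were BLNK, a B cell adaptor (r within groups = 0.85), CLCF1, a cytokine of the IL6 family (0.84), POLH, a translesion DNA polymerase (0.82), EEPD1, a nuclease of DNA repair (0.81), and FOS, a subunit of AP-1 (0.80). Over the 17 kidneys without regard to group their r was lower, from 0.37 for BLNK to 0.70 for POLH. Without G3 kidney 3, which held the highest UPF3A of its group, the r within groups was 0.73, 0.72, 0.70, 0.79 and 0.72 in the same order. FOS averaged 464, 422 and 481 CPM in G1, G2 and G3, and over the 12 kidneys given pUPC-EVs alone its r was 0.88. In G1 the highest FOS stood in kidney 5, which held the second lowest UPF3A of that group. Among the matched NMD core factors, r with UPF3A over the 17 kidneys ran from -0.47 for SMG5 to 0.15 for UPF3B.

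**Figure D5:**
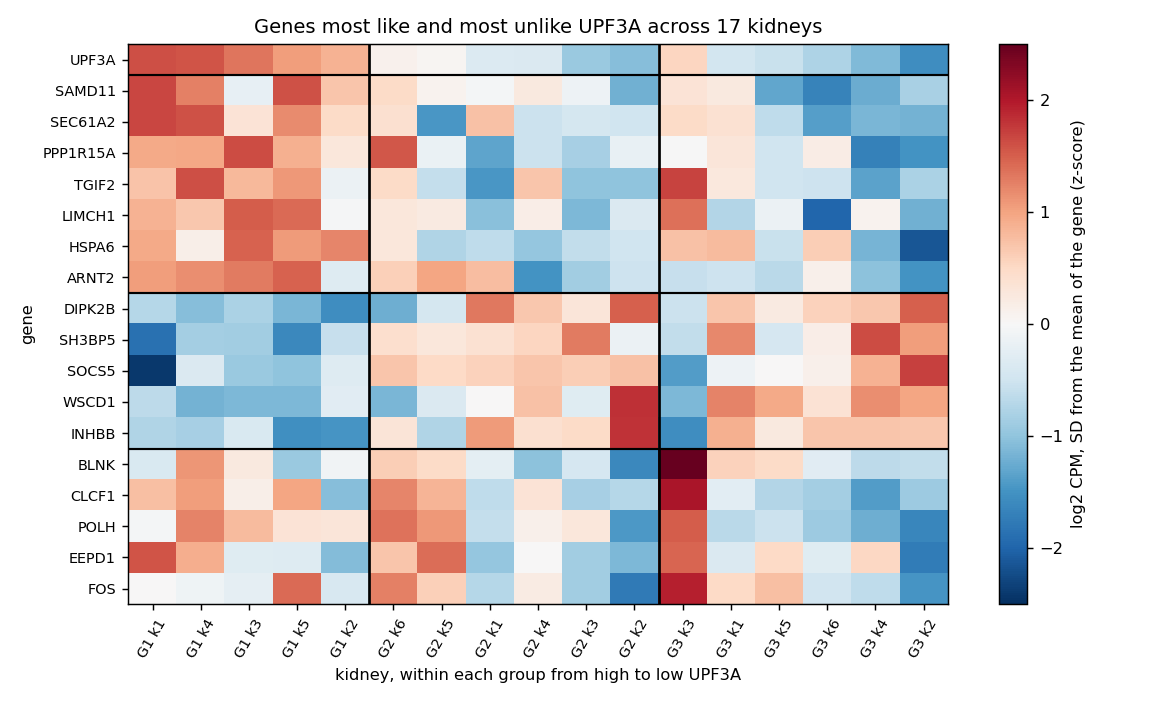
Log2 CPM of UPF3A (top row) and of the named genes with the highest r, the lowest r and the highest r within groups (blocks from top to bottom), as the distance from each gene's mean in SD, with the kidneys of each group ordered from high to low UPF3A. In the block under UPF3A the G1 kidneys are mostly red and in the next mostly blue, while in the bottom block G3 kidney 3 stands out within its group.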

How the data were processed

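Adapters were trimmed with cutadapt 4.0 and the read pairs of stranded mRNA libraries aligned with STAR to Sscrofa11.1. The authors deposited the number of reads on each gene as raw counts, 1 column per kidney and not normalized; the counting program and its strand setting are not given in the sources used here. Their table of a DESeq2 comparison of G3 with G1 (fold changes and p-values of genes past an unadjusted threshold) was not used. Total counts ran from 19270046 to 24736473 per kidney, and p-values measure the spread between kidneys.

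Each pair of groups was fitted in edgeR 4.0.16 (R 4.3.3; quasi-likelihood test, TMM, genes with at least 1 count, Benjamini-Hochberg adjustment, threshold 0.05). The SE of a log2 fold change was calculated as its absolute value divided by the square root of the F statistic of that test. The 95% intervals were built from this SE with a t quantile. Log2 CPM used a prior count of 2. The fit was run on simulated counts with planted changes larger than those of UPF3A against G1. How well it recovers changes as small as those of UPF3A was not tested. Alternatives were DESeq2 1.42.0, voom of limma 3.58.1 (weighting samples by quality), other scaling, filters and samples, a replicate block and the code series. Symbols came from the reference tables for 15093 of the 26560 identifiers and matched 93 of 105 list members, marker lists included.

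UPF3A and the lists were chosen with earlier results of these data known. Named genes were list members, neighbours up to 3 genes away, the named genes among the 10 with the highest r, and the 5 named genes each with the lowest r and the highest r within groups. CAMK2A was named after its values were seen. Values of 2 single list members are not reported here.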

Additional observations from a re-analysis of the deposited data

Results flagged for a closer look

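In 141 groups of values of UPF3A and the genes named beside it, 13 held 1 kidney far from the others of its group by Dixon's test, where chance flags about 1 in 20 groups, or 7.05 of 141. Many of these genes were chosen for their likeness to UPF3A across the same kidneys, so the number of flags cannot be read against chance. UPF3A was not among them. In G3 kidney 3, which held the highest UPF3A of its group, 4 genes ranked by that likeness stood apart, and this is no separate observation. BLNK in it was at 14.8 CPM beside at most 8.30 CPM in the other G3 kidneys, CLCF1 at 37.6 CPM beside at most 18.9, POLH at 33.3 CPM beside at most 17.2, and INHBB at 10.1 CPM beside at least 21.2. G2 kidney 6 was high in PPP1R15A, at 450.7 CPM beside at most 310.6, and in HSPA6, at 714.0 CPM beside at most 524.0. UPF2 in G2 kidney 3 was at 40.4 CPM beside at most 35.0, and ATF4 in G2 kidney 1 at 544.4 CPM beside at least 699.2. In G1, SMG5 in kidney 1 was at 59.9 CPM beside at least 70.4, XRN1 in the same kidney at 26.7 CPM beside at least 36.3, UPP1 in the same kidney at 14.8 CPM beside at most 7.39, ARNT2 in kidney 2 at 60.1 CPM beside at least 79.5, and FOS in kidney 5 at 714.9 CPM beside at most 429.8.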

How the results depend on the processing

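The direction of UPF3A against G1 was fixed by the selection, so only the sizes of its log2 fold changes are described. Against G1 they ran from -0.66 to -0.57 for G3 and from -0.59 to -0.50 for G2 under all 10 alternatives to the fit. For G3 against G2 they ran from -0.09 to -0.02. With a replicate block, which pairs kidneys of the same number, they were -0.57, -0.55 and -0.06. Kidneys of 1 number deviated together in only part of the pairs (correlation over 0.1 in 3 of 5, 3 of 5 and 2 of 6), not every kidney correlated best with its own number, and they share only a number. Without the 3 kidneys with fewer than 19000 genes detected, an alternative chosen after seeing the data, they were -0.56, -0.52 and -0.04. With 1 kidney left out in turn they ran from -0.66 to -0.52, from -0.54 to -0.47 and from -0.14 to -0.01. The median of the NMD core changed sign in 2, 1 and 5 of the 10 alternatives (G3 against G1, G2 against G1, G3 against G2) and lay between -0.07 and 0.07 in all of them. Library size alone moved the median of all genes for G3 against G1 from -0.02 to -0.11.

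The number of genes called depended on the method. For G3 against G1 it was 31 with DESeq2, 25 without its independent filtering, 1 each with voom (sample quality weights), filterByExpr or at least 10 counts per kidney, 0 in 1 fit of all 3 groups (1126 at an unadjusted p below 0.05), 9 with the replicate block, 11 with the code series, and 0 to 9 with 1 kidney left out (0 without G1 kidney 1 or 3 or G3 kidney 2 or 5, 1 without G3 kidney 1 or 4, 4 without G1 kidney 4, 9 without G1 kidney 5). For G2 against G1 it was 1 with DESeq2 with or without filtering, 2 with the code series, and 0 with any kidney left out. For G3 against G2 it was 3 with DESeq2 with or without filtering, 7 with the replicate block, and 0 to 5 with 1 kidney left out (5 without G2 kidney 2). Of the 10 genes most like UPF3A, 6 were shared with library size alone, 6 at a mean of at least 5 CPM, and 3 to 9 with 1 kidney left out, 3 without G1 kidney 1, 5 without G1 kidney 3 or 4, and 6 without G2 kidney 2 or G3 kidney 5. Genes with all 12 kidneys given pUPC-EVs below G1 numbered 7 with library size alone. Causes were not tested.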
